A study of Mus musculus with 8 samples.

Results

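The MYC, MAX and MXD network was followed here through 9 of its transcription factors: Myc, Max, Mxd1, Mxd3, Mxd4, Mxi1, Mnt, Mlx and Mlxip. The cells were J774.1, which is a line of macrophage-like cells from the mouse strain BALB/c. The members were all the probes on the array whose gene symbol is 1 of those 9, which gave 15 of 56605 probes and 9 of 22911 genes with a symbol. The genes were picked with their differences on these same arrays known, so their values below are a description and carry no p-value. The cells received 10 µM isorhamnetin, 10 µM tamarixetin or 1 µM Torin1 for 6 h, or were controls, whose time and vehicle are not given in the sources used here. Each of the 4 groups has 2 arrays from biological replicates of this 1 line. Isorhamnetin and tamarixetin are isomers, mono-methyl ethers of the flavonol quercetin that carry the methyl group on neighbouring hydroxyls of the same ring, and Torin1 is an inhibitor of the kinase mTOR.

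MYC is a transcription factor that drives growth genes, among them those for ribosome assembly, nucleotide synthesis and the cell cycle. It binds DNA only as a pair with MAX, at the E-box CACGTG. MAX also pairs with MXD1, MXD3, MXD4, MXI1, MNT and MGA, which compete for the same sites. Of these, the MXD proteins, MXI1 and MNT recruit SIN3 and histone deacetylases to silence the sites. MLX is a second partner hub, which pairs with MLXIP and MLXIPL, sensors of glucose metabolites, and with some of the MXD proteins and MNT. In macrophages, MYC is known as an early gene of growth factor signalling, and MXD1 as a gene that comes on when myeloid cells mature.

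The RefSeq table for GRCm38.p6 held promoter windows, 250 bases before to 50 after the start, for 8 of the 9 genes, all but Myc. The motif CACGTG, which reads the same on both strands, was present in the windows of 4 of these 8 genes, Max, Mxd4, Mnt and Mlx. It was present in 7.15% of all 32851 windows and in at least 1 window of 8.09% of all 27025 genes. A match is a stretch of letters, not a shown binding site. The first 270 bases of the 4 windows are printed 5′ to 3′ on the gene's own strand because these are the members whose promoter holds the network's own E-box, which is in capitals. It began 3 bases before the start in Max (chr12:76962229-76962498, minus strand), 219 bases before it in Mxd4 (chr5:34187691-34187960, minus strand), 123 in Mnt (chr11:74830674-74830943, plus strand) and 40 in Mlx (chr11:101087040-101087309, plus strand).
Max: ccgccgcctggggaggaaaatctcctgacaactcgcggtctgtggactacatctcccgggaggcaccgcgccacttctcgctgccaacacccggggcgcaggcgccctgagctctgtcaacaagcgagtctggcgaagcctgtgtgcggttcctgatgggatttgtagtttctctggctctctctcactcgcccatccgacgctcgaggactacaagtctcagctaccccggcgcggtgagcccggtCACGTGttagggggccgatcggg
Mxd4: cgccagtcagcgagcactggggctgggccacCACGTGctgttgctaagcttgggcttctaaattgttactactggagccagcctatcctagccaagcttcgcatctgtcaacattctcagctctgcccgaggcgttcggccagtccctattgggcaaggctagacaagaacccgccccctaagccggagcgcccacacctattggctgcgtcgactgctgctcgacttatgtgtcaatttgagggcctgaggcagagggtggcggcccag
Mnt: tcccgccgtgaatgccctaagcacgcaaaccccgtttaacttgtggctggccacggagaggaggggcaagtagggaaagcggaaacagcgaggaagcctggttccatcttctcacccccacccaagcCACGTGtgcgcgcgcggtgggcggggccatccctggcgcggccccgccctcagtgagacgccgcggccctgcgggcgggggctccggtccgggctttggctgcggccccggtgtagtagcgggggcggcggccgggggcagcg
Mlx: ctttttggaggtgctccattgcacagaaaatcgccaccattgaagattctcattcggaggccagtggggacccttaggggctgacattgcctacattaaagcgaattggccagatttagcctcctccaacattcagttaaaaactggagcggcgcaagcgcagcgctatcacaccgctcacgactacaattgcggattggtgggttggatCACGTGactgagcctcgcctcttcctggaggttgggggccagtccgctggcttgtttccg
Of these 4 genes, Mxd4 and Mnt were higher with Torin1 and Mlx was lower, while the Max call depended on the probe and the scaling. The windows of Mxd1, Mxd3, Mxi1 and Mlxip held no CACGTG.

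Levels are log2 processed signal minus the 75th percentile of the array, so a level of 0 is as bright as that percentile, and levels of different probes are not compared. That percentile lay between 498 and 626 signal units on the 8 arrays. Between 43.9% and 54.1% of spots were well above background, and 0 were saturated. All 8 arrays sat on 1 slide. The control and isorhamnetin arrays were in 1 of its rows and the tamarixetin and Torin1 arrays in the other. Slide row and group cannot be told apart for tamarixetin or Torin1 against control, or between the isomers. The isorhamnetin and control arrays shared a row. Of 8 macrophage markers, all were well above background on all 8 arrays. Of 7 markers of other cell types, 5 were above it on none, among them Ms4a1, Epcam, Col1a1 and Pdgfra, Cdh5 was left out for an outlier flag, and the T cell gene Cd3e was above it on all 8, at levels of -0.95 to -0.17. In RNA from a culture, a change in which cells are present and a change in RNA per cell cannot be told apart.

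Torin1 came with the widest differences among the 9 genes. Myc, Mxd4 and Mnt were higher than in control cells and Mlx was lower, 4 of 9 genes past an adjusted p of 0.05 in limma, where 48.7% of all 21528 genes were past it, 21.3% higher and 27.4% lower. With isorhamnetin 0 of 9 genes passed, where 0.562% of all genes did, 0.423% higher and 0.139% lower, and with tamarixetin 0 of 9, where 0.0743% did, 0.065% higher and 0.00929% lower. Between isorhamnetin and tamarixetin 1 of 9 passed, Mxd1, lower with isorhamnetin, where 0.804% of all genes did, 0.562% higher and 0.242% lower. These shares are printed as the background of the counts, since the genes were chosen on these contrasts. With 2 arrays a group, groups that do not overlap are common: they made up 51.1% of all genes with isorhamnetin, 46.6% with tamarixetin and 78.6% with Torin1, each against control, and 42.4% between the isomers.

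**Figure D1:**
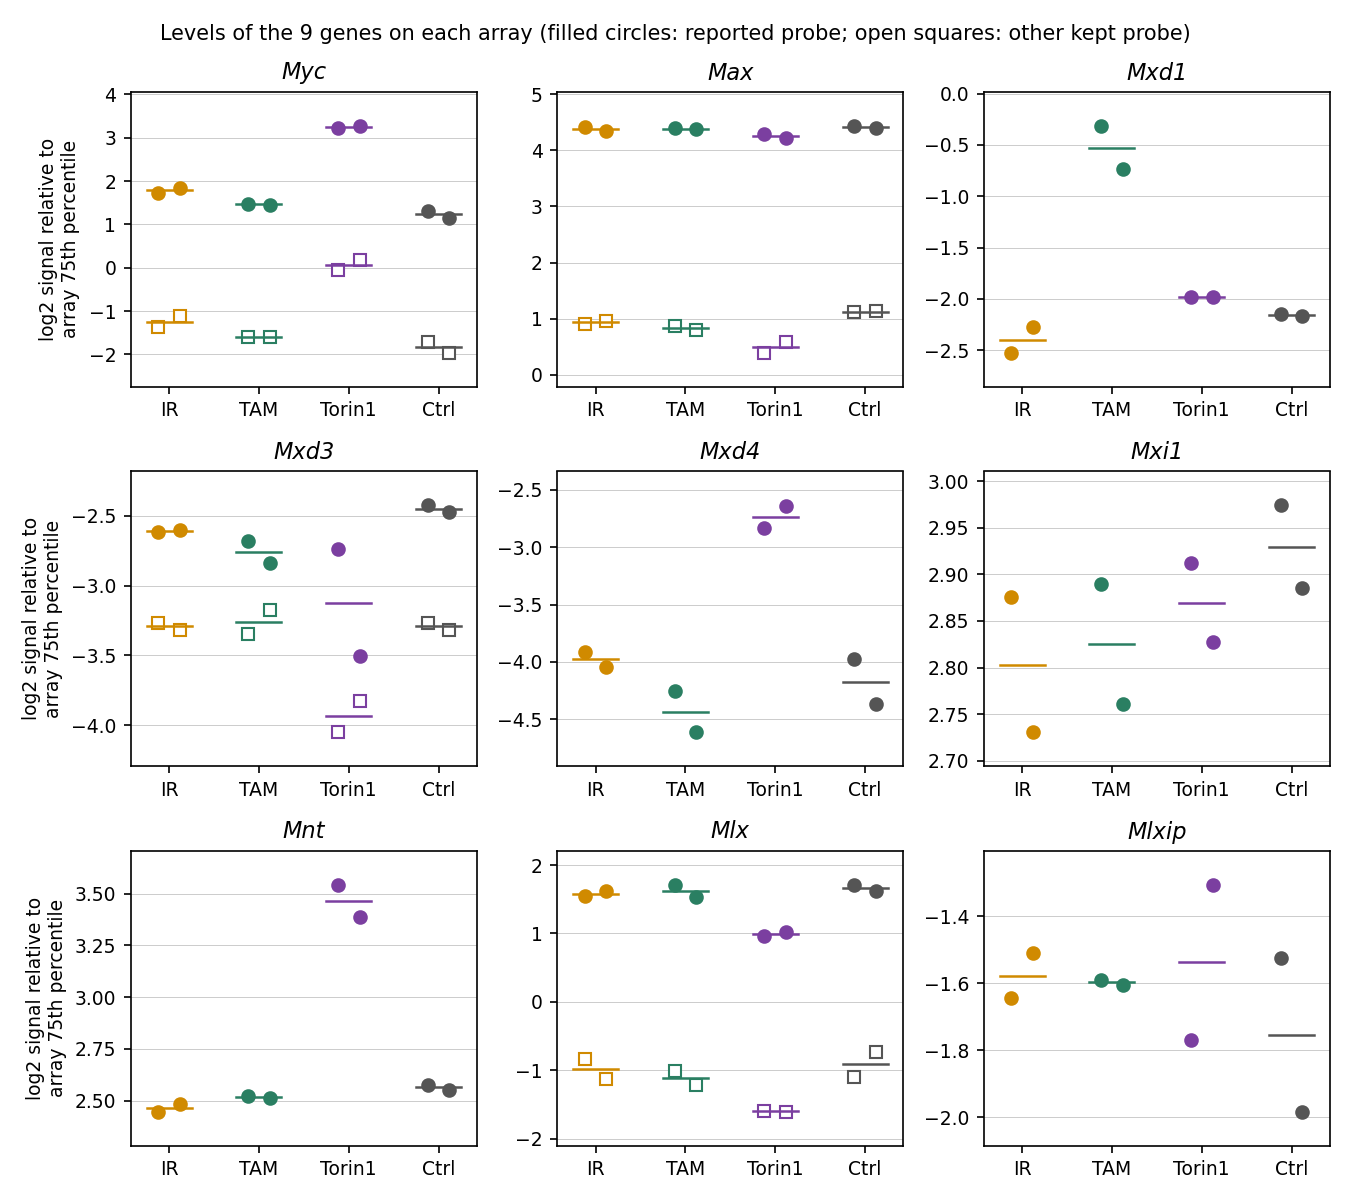
Level of each of the 9 genes on every array, as log2 signal relative to the array's 75th percentile, with isorhamnetin (IR), tamarixetin (TAM), Torin1 and control (Ctrl) from left to right and a scale of its own for each gene. Points are arrays, short lines are group means, filled circles the brightest probe of the gene and open squares its other probe above background; Myc stands highest with Torin1 on both probes, and Mxd1 with tamarixetin on its single measured probe.

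Myc, the activator of the network, was higher with all 3 compounds than in control cells, and its 4 groups stood apart from each other on both of its probes. On the brighter probe, A_52_P108346, the level was 1.72 and 1.85 with isorhamnetin, 1.48 and 1.45 with tamarixetin, 3.22 and 3.27 with Torin1, and 1.32 and 1.14 in control cells. The order from low to high was control, tamarixetin, isorhamnetin, Torin1, with no overlap between neighbours. How often all 4 groups stand apart over all genes was not counted. The difference from control was 2.01 ± 0.08 with Torin1 (SE of the fit), a 4.04-fold higher signal. It was 0.56 ± 0.08 with isorhamnetin, or 1.47-fold, and 0.23 ± 0.08 with tamarixetin, or 1.18-fold. Isorhamnetin stood 0.32 ± 0.08 above tamarixetin, or 1.25-fold. The dimmer probe, A_52_P278549, gave -1.37 and -1.11 with isorhamnetin, -1.60 and -1.59 with tamarixetin, -0.04 and 0.18 with Torin1, and -1.71 and -1.96 in control cells. The order was the same there, and the differences from control were 0.59, 0.24 and 1.90. Only the Torin1 difference was past the threshold, and it lay between 1.78 and 2.10 in the 21 alternatives run. Some of these cannot move a difference, only its call, so their number is no measure of stability. The isorhamnetin difference was past the threshold in 1 of 21, which kept only probes above background on all 8 arrays.

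The genes with a symbol whose level followed Myc most closely over the 8 arrays were Impact, Arhgap10 and Rcan1, with Pearson correlations of 0.998, 0.997 and 0.997 among 11236 genes above background throughout. The 8 points fall in 4 groups and the Torin1 arrays stand apart from the rest, so the correlation mostly describes that gap. Rcan1, an inhibitor of calcineurin, had mean levels of 3.31 with isorhamnetin, 3.13 with tamarixetin, 4.6 with Torin1 and 2.96 in control cells.

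Max, the partner that MYC and the MXD proteins share, had Torin1 differences that depended on the probe and the scaling. On A_51_P188211 the level was 4.42 and 4.35 with isorhamnetin, 4.39 and 4.37 with tamarixetin, 4.29 and 4.23 with Torin1, and 4.43 and 4.40 in control cells. The Torin1 arrays were the lowest, by 0.16 ± 0.05, a difference that did not pass the threshold as fitted here. It was 0.02 in the other direction after quantile normalization. It passed in 7 of 21 alternatives, among them median centring and the mean of both probes, at -0.39 each, and the authors' deposited values, at -0.20. The isomers differed by 0.00 ± 0.05. The dimmer probe, A_55_P2745603, had 0.91 and 0.96 with isorhamnetin, 0.87 and 0.81 with tamarixetin, 0.40 and 0.59 with Torin1, and 1.11 and 1.13 in control cells. Its Torin1 difference of -0.63 was past the threshold when all probes were fitted, so the probes of Max had the same sign and unequal sizes.

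Among the MXD repressors, Mxd4 was the one past the threshold with Torin1 as fitted here. Its only probe, A_51_P148865, had levels of -3.91 and -4.04 with isorhamnetin, -4.26 and -4.61 with tamarixetin, -2.84 and -2.64 with Torin1, and -3.98 and -4.36 in control cells. Both Torin1 arrays lay above the other 6, while the isorhamnetin and the tamarixetin arrays each overlapped the control arrays. The probe was dim: it was well above background on both isorhamnetin arrays and both Torin1 arrays, on 1 of 2 control arrays and on neither tamarixetin array. The Torin1 difference was 1.43 ± 0.18, and it was 0.46 with normexp background correction in place of the processed signal, past the threshold both times.

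Mnt, the MAX partner that is expressed most widely and is known to counter MYC in resting and growing cells alike, was also higher with Torin1. Its probe, A_52_P477431, had levels of 2.45 and 2.48 with isorhamnetin, 2.52 and 2.51 with tamarixetin, 3.54 and 3.38 with Torin1, and 2.58 and 2.55 in control cells. The Torin1 arrays stood apart by 0.90 ± 0.07, or 1.86-fold. The difference lay between 0.67 and 1.00 in 20 alternatives, some of which cannot move a difference, so their number is no measure of stability. Mnt differed from control by -0.10 ± 0.07 with isorhamnetin and by -0.05 ± 0.07 with tamarixetin.

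Mxd3, known for its expression in dividing cells, differed between the replicates of Torin1. On A_51_P315530 the level was -2.62 and -2.60 with isorhamnetin, -2.68 and -2.84 with tamarixetin, -2.74 and -3.51 with Torin1, and -2.43 and -2.48 in control cells. The first Torin1 array lay among the tamarixetin arrays and the second lay below all others. The difference from control, -0.67 ± 0.24, did not pass the threshold as fitted here. It passed in some alternatives, among them normexp correction, at -0.36 ± 0.07. It was -0.29 without the second Torin1 array, and -1.06 and past the threshold without the first, each time with 1 Torin1 array that was assumed to vary like the other groups. The other probe, A_52_P190647, gave -4.05 and -3.82 with Torin1 against -3.27 and -3.32 in control cells, and its difference of -0.65 was past the threshold in the fit of all probes. It was well above background on 7 of 8 arrays and not on the first Torin1 array, the one at -4.05. There the median pixel signal was 60 and the local background 28.5.

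Mxi1, the MXD family member also called MXD2, had levels of 2.88 and 2.73 with isorhamnetin, 2.89 and 2.76 with tamarixetin, 2.91 and 2.83 with Torin1, and 2.97 and 2.89 in control cells on its probe, A_55_P2806788. The groups lay within 0.13 of each other in their means and each overlapped its neighbour in the order. No difference passed the threshold.

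Mxd1, the member tied to maturing myeloid cells, stood out with tamarixetin and not with isorhamnetin. On A_51_P490795, in spot row 32 and column 6, the level was -2.52 and -2.28 with isorhamnetin, -0.32 and -0.74 with tamarixetin, -1.98 and -1.98 with Torin1, and -2.15 and -2.17 in control cells. Both tamarixetin arrays lay above the other 6. The order from low to high was isorhamnetin, control, Torin1, tamarixetin, with no overlap between neighbours. Isorhamnetin and Torin1 differed from control by only -0.24 ± 0.15 and 0.18 ± 0.15, and how often all 4 groups stand apart over all genes was not counted. The processed signals behind these levels were 502.6 and 334.9 with tamarixetin, against 128.9 and 111 in control cells, and the median pixel signals were 462 and 274 against 148 and 118. The local background around the spot was 18 and 34 on the tamarixetin arrays, against 19.5 and 18 on the control arrays. The tamarixetin difference from control was 1.63 ± 0.15, or 3.09-fold, and did not pass the threshold over all genes, while isorhamnetin lay 1.87 ± 0.15 below tamarixetin, which did pass. With normexp correction these differences were 0.96 and -1.08, and neither passed.

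The call between the isomers for Mxd1 was lost without either isorhamnetin array, either Torin1 array or either control array, and was made without either tamarixetin array, at -1.66 without the first and -2.08 without the second. Against control, tamarixetin passed the threshold without 1 of its own arrays, at 1.42 without the first and 1.84 without the second. The only other setting past it was no filter on dim probes, at 1.63. In that setting 12581 of 45380 genes passed with tamarixetin, 12077 higher and 504 lower. With 1 tamarixetin array left, that array is assumed to vary like the other groups, and the SE was 0.11 against 0.15 with all arrays, so these calls leave out the spread between the tamarixetin arrays. The second Mxd1 probe, A_51_P388607, in row 174 and column 157, was not well above background on any array, so the Mxd1 difference rests on a single spot per array.

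Large tamarixetin differences were more frequent in the rows around that spot. Of 278 probes above background whose tamarixetin level was more than 1 above control, 159, or 57.2%, lay in the first 48 of 384 spot rows. In those rows 4.45% of 3573 probes were that high, against 1.79% of rows 49 to 96, 1.35% of rows 97 to 144, and between 0 and 0.174% of each later band of 48 rows. Among probes as bright in control cells as the Mxd1 probe, within 1 log2 unit, the share was 2.66% in the first 48 rows, 20 of 752, against 0.266% in the other rows, 14 of 5254. The 24 probes above background within 3 rows and 3 columns of the Mxd1 spot had a median difference of -0.03, with a range of -0.53 to 5.61. The median difference of all 3573 probes in the first 48 rows was -0.03 as well. With Torin1, the share more than 1 above control was 8.09% in the first 48 rows and 4.34% in the last 48. Mxd1 differed from control by 0.18 with Torin1. The part of the spot's position in the Mxd1 value was not tested.

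**Figure D2:**
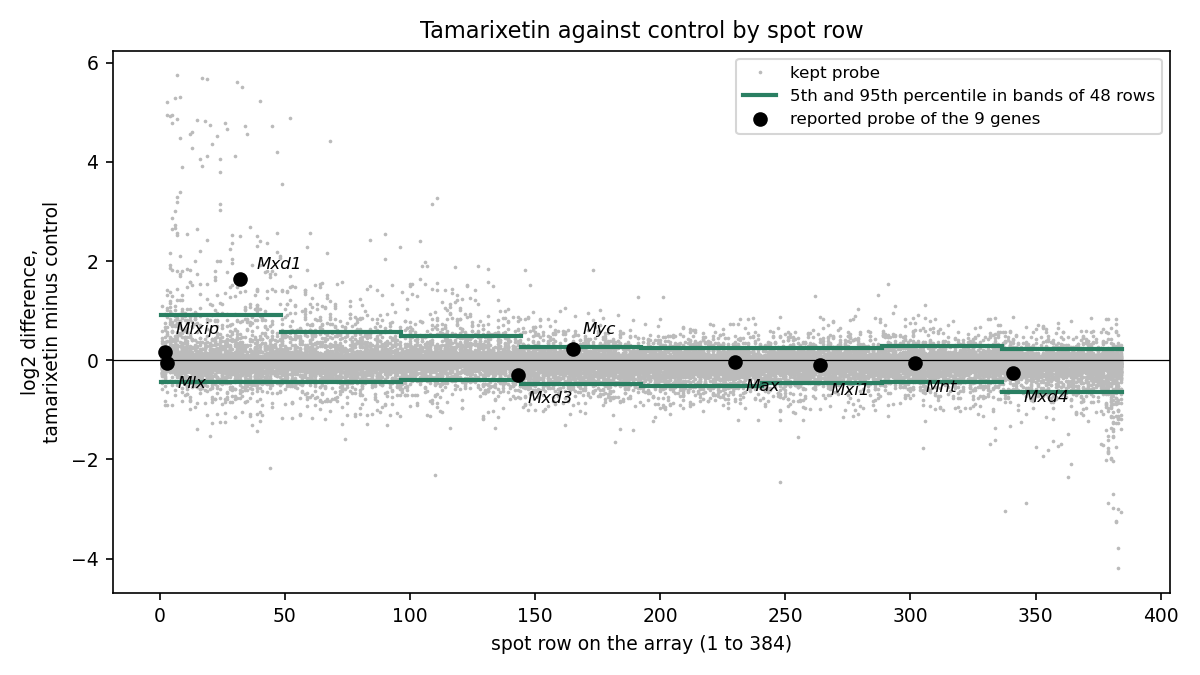
Difference between tamarixetin and control (log2, vertical axis) for every probe above background, by its spot row on the array (horizontal axis, row 1 to 384). Green lines are the 5th and 95th percentiles in bands of 48 rows and black points the probes reported for the 9 genes; the 95th percentile is 0.92 in the first band and 0.23 in the last, and Mxd1 lies in row 32.

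The genes whose level followed Mxd1 most closely were Kifc2, Tssk4 and Lin7c, with Pearson correlations of 0.971, 0.943 and 0.942 over the 8 arrays, among 11236 genes. Kifc2 is in row 7 and Tssk4 in row 19, and Lin7c is in row 142. The mean level of Kifc2 was -3.53 with isorhamnetin, -0.88 with tamarixetin, -2.79 with Torin1 and -3.44 in control cells. Lin7c spanned a far narrower range, with means of 1.69 with isorhamnetin, 1.83 with tamarixetin, 1.72 with Torin1 and 1.70 in control cells. The correlation again describes 4 groups of 2 arrays, with 1 group apart.

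In the MLX branch, Mlx was lower with Torin1 on both probes. On A_51_P261443 the level was 1.55 and 1.62 with isorhamnetin, 1.71 and 1.53 with tamarixetin, 0.97 and 1.03 with Torin1, and 1.71 and 1.63 in control cells. Both Torin1 arrays lay below the other 6, and the tamarixetin arrays overlapped both the isorhamnetin and the control arrays. The difference was -0.67 ± 0.08, a fold of 0.629, and the second probe, A_66_P117739, gave -0.69 with levels of -1.59 and -1.61 with Torin1 against -1.09 and -0.73 in control cells. The 2 probes lie in rows 3 and 380, in the first and the last 48 rows, and without both of these bands Mlx was not measured. With Torin1 the 5th percentile of all differences was -0.792 in the first 48 rows and -0.994 in the last 48. It was between -0.813 and -0.752 in the bands between. The part of the spots' position in the Mlx values was not tested. Against control, Mlx differed by -0.08 ± 0.08 with isorhamnetin and -0.05 ± 0.08 with tamarixetin.

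Mlxip, also called MondoA, the MLX partner of most tissues, had no group apart. Its level on A_51_P246727 was -1.64 and -1.51 with isorhamnetin, -1.59 and -1.60 with tamarixetin, -1.77 and -1.31 with Torin1, and -1.53 and -1.98 in control cells. The 2 Torin1 arrays, and the 2 control arrays, differed more from each other than the 4 group means did. Its second probe, A_66_P102574, was not well above background on any array.

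**Figure D3:**
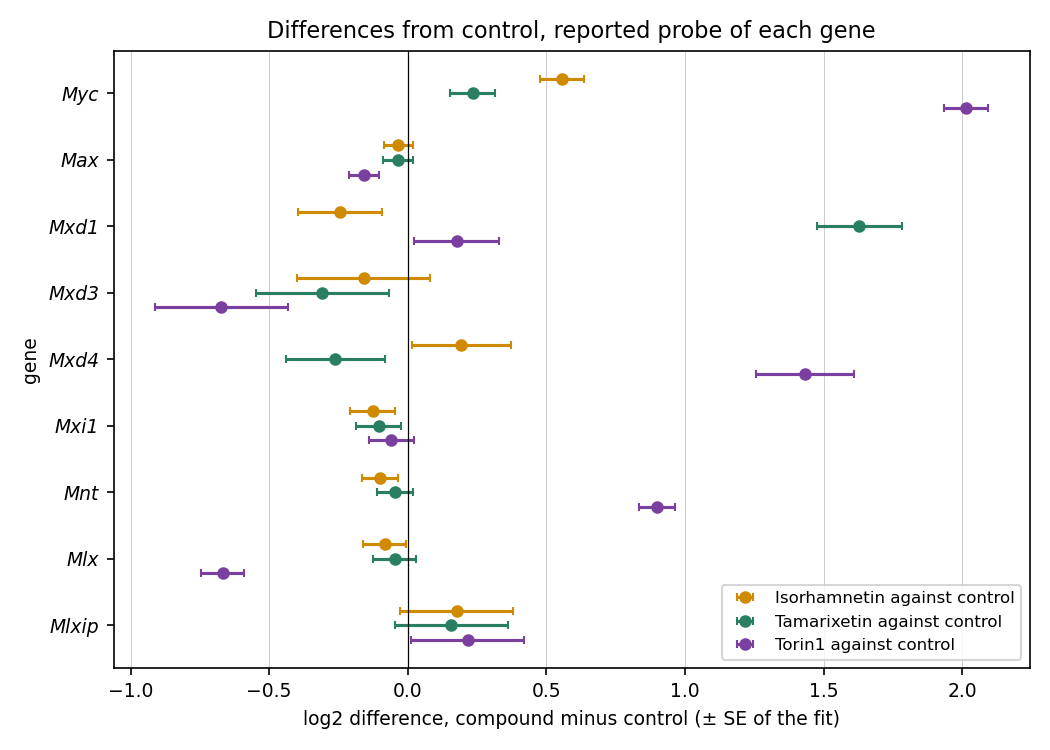
Log2 difference from control of the brightest probe of each of the 9 genes, with isorhamnetin, tamarixetin and Torin1 from top to bottom within a gene and the standard error of the fit as bars. With Torin1, Myc (2.01), Mxd4 (1.43) and Mnt (0.90) lie to the right of 0 and Mlx (-0.67) to the left; with tamarixetin, Mxd1 (1.63) is the point farthest from 0.

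Genes around the network were read from lists, which were also chosen with earlier results of these data known. Their calls and adjusted p-values come from limma with Benjamini-Hochberg adjustment over all genes, and are a description too. With Torin1, 48.7% of all genes passed, 21.3% higher and 27.4% lower, and each list count below is to be read beside these shares. Of the other network genes, 13 of 27 measured passed, 3 higher and 10 lower, close to the share over all genes, with a median difference of -0.15 against -0.06 over all genes. Among regulators of MYC protein, the ubiquitin ligase subunit Skp2 fell by 0.66 ± 0.06 (adjusted p = 0.000864), and the deubiquitinase Usp36 fell by 0.56 ± 0.09 (adjusted p = 0.00409). The other Usp36 probe above background, A_66_P120280, gave -0.38 and did not pass. Of the cofactors, Ruvbl2, a helicase of chromatin remodelling complexes, fell by 0.63 ± 0.09 (adjusted p = 0.0032). Hdac2, a histone deacetylase that MXD proteins bring to DNA through SIN3, fell by 0.57 ± 0.18 (adjusted p = 0.0471), a call that was lost in 9 of 20 alternatives. Mlxipl, or ChREBP, the other glucose-sensing MLX partner, rose by 0.60 ± 0.14 (adjusted p = 0.0156). That call was lost in 4 of 20 alternatives, and the other Mlxipl probe above background, A_55_P2119957, gave 0.37 and did not pass.

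Genes that MYC is known to activate were mostly lower with Torin1. All 40 were measured, and 27 passed, 25 lower and 2 higher, where 27.4% of all genes were lower and 21.3% higher, with a median of -0.32 against -0.06 over all genes. Ccnd2, a D-type cyclin, fell by 2.03 ± 0.10 (adjusted p = 0.000119), with mean levels of -2.26 with Torin1 and -0.22 in control cells. That probe lies in row 7. Of its other probes, A_52_P53906 gave -2.37, past the threshold in the fit of all probes, and A_65_P18532 gave -0.10 and did not pass. Without the first 48 rows the gene was read from a probe at -0.10, and the call was lost. The spermidine synthase gene Srm fell by 0.96 ± 0.05 (adjusted p = 0.000133). The ribosome assembly genes Nop16 and Bop1 fell by 0.69 ± 0.08 (adjusted p = 0.00176) and 0.55 ± 0.07 (adjusted p = 0.0017). Nme1, a nucleoside diphosphate kinase, fell by 0.62 ± 0.05 (adjusted p = 0.000397), and Shmt2, of mitochondrial serine metabolism, fell by 0.57 ± 0.06 (adjusted p = 0.000973).

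Odc1, the first enzyme of polyamine synthesis, and Apex1, a DNA repair enzyme, were the 2 that rose, Odc1 by 0.34 ± 0.08 (adjusted p = 0.014) and Apex1 by 0.26 ± 0.07 (adjusted p = 0.0327). Apex1 was named after its value was seen, and its call was lost in 11 of 20 alternatives and that of Odc1 in 4 of 20. Ncl, the nucleolar protein nucleolin, differed by -0.26 ± 0.12 (adjusted p = 0.124). Centring the arrays on their median in place of the 75th percentile moved the median of all genes with Torin1 to -0.29, and the calls over all genes to 2575 higher and 9437 lower, or 21.4% higher, against 4581 and 5901, or 43.7% higher. With that centring 0 of the activated genes were called higher and 32 lower, and Odc1 was at 0.11 and no longer past the threshold. After quantile normalization 6 were called higher and 20 lower.

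Genes that MYC is known to repress went both ways with Torin1. Of 9 measured, 6 passed, 2 higher and 4 lower, where 48.7% of all genes passed, with a median of -0.11 against -0.06 over all genes. The growth arrest gene Gadd45g fell by 2.92 ± 0.05 (adjusted p = 1.22e-05) and the cell cycle inhibitor Cdkn1a, or p21, fell by 2.19 ± 0.06 (adjusted p = 3.22e-05). Ndrg2 fell by 1.31 ± 0.06 (adjusted p = 0.000104), while its relative Ndrg1, a stress and hypoxia gene, rose by 1.30 ± 0.22 (adjusted p = 0.00546). Cdkn2c, an inhibitor of CDK4 and CDK6, fell by 0.35 ± 0.08 (adjusted p = 0.0144), a call that was lost in 3 of 20 alternatives. Tgfbr2, a receptor for TGF-β, rose by 0.21 ± 0.05 (adjusted p = 0.0199), a call that was lost in 5 of 19 alternatives and a direction that turned to -0.019 with median centring.

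Of 10 targets of MLX and its partners, 6 were measured and 3 passed with Torin1, close to the 48.7% of all genes, with a median of -0.20 against -0.06 over all genes. Txnip, the thioredoxin-binding protein that is the best known target of MLXIP, rose by 0.45 ± 0.05 (adjusted p = 0.00146). With median centring it was at 0.21 and not past the threshold. The other Txnip probe above background, A_55_P2006255, gave 0.38 and did not pass. Elovl6, a fatty acid elongase, fell by 0.99 ± 0.07 (adjusted p = 0.000318), and Rgs16, a regulator of G protein signalling, fell by 0.53 ± 0.05 (adjusted p = 0.000974). Beside these, 5 of 8 macrophage markers changed with Torin1, where 48.7% of all genes did: Adgre1, Cd68 and Ptprc were higher and Fcgr1 and Spi1 lower, and their part in the list counts was not tested.

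**Figure D4:**
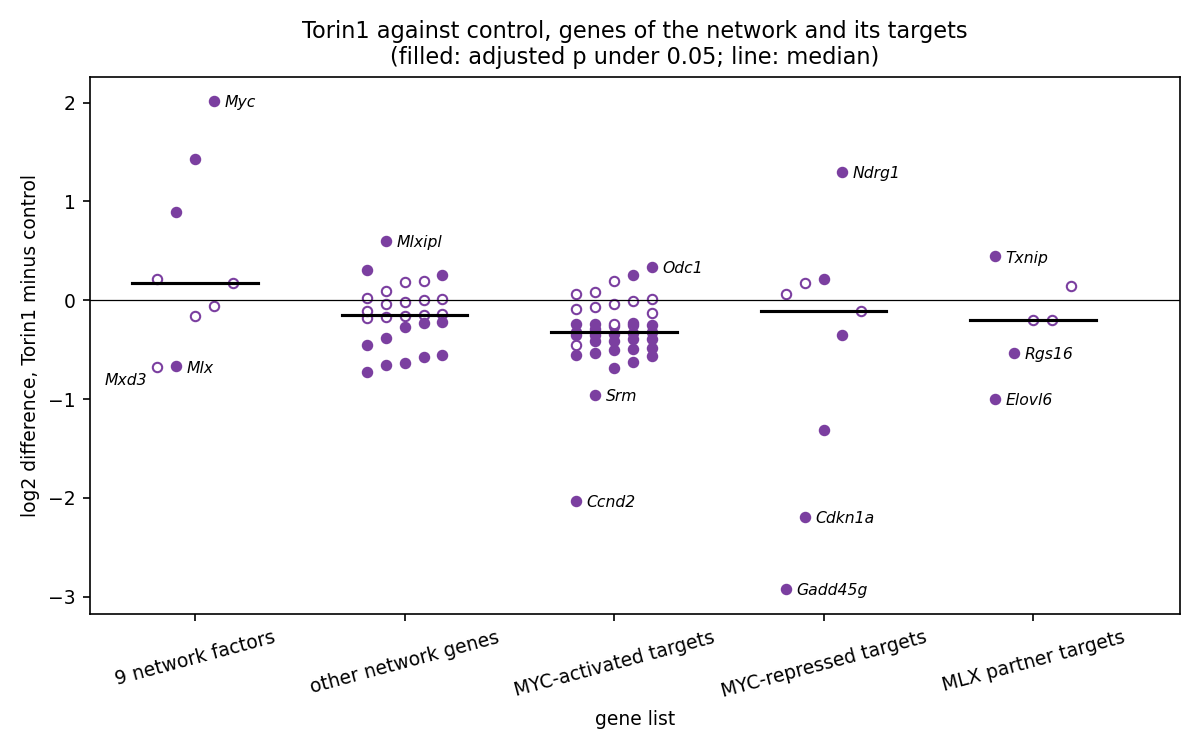
Log2 difference between Torin1 and control for the 9 network factors and the 4 lists around them, 1 point per gene, with the median of each list as a line. Filled points are past an adjusted p of 0.05, which is a description for the 9 factors and for the lists. Both were chosen with earlier results of these data known. Of 40 MYC-activated genes, 25 are filled and below 0, and 2 are filled and above it.

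With the flavonol isomers the same lists stayed nearly without calls. With tamarixetin none of the 82 listed genes measured passed the threshold, where 16 of all genes did, 14 higher and 2 lower. That split was 15 and 6 after quantile normalization and 17 and 5 with median centring. With isorhamnetin Gadd45g alone passed, higher by 0.47 ± 0.05 (adjusted p = 0.0413), with mean levels of 0.95 with isorhamnetin and 0.48 in control cells. It was also the only listed gene called between isorhamnetin and tamarixetin, at 0.45 ± 0.05 (adjusted p = 0.0382). Both Gadd45g calls were lost when any 1 of the 8 arrays was left out. The Gadd45g probe lies in row 348. In rows 337 to 384 the 95th percentile of all differences was 0.535 with isorhamnetin against control and 0.641 between the isomers. The part of the spot's position in the Gadd45g value was not tested. The median difference of the activated genes was -0.03 with isorhamnetin and -0.02 with tamarixetin, each against control, beside -0.01 and -0.03 over all genes, and -0.02 between the isomers.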

How the data were processed

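Agilent arrays of 1 colour (Cy3) were used, with 8 arrays in 4 groups of 2. Agilent Feature Extraction 10.7.1.1 made the intensity values (processed signal), per the file headers, with background subtracted and with spatial detrending within each array. The authors' deposited table holds log2 values, centred on each probe, and served as an alternative. All columns were matched, with 0 unmatched. Here log2 signal minus each array's 75th percentile over spots was used. Probes with outlier flags (323) were dropped, 27562 probes were kept, those that at least 1 group had well above background on both its arrays, and the brightest probe stood for a gene, 21528 in all. RefSeq accessions gave symbols for 32994 probes. limma 3.58.1 in R 4.3.3 fitted all 8 arrays with 4 residual degrees of freedom, and p-values were adjusted over all genes by Benjamini-Hochberg with a threshold of 0.05. The number of arrays limits the precision. The script was tested on simulated data.

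The 9 genes, the gene lists and the naming rule (every member, up to 6 called genes of each list, 4 fixed genes, and 3 genes most alike Myc and Mxd1) were chosen with earlier results of these data known. Some genes that the rule names are not reported here. Alternatives changed background correction, scaling, filter, probe choice, fit, edge rows, replicate block and each array left out.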

Additional observations from a re-analysis of the deposited data

How the results depend on the processing

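Over 708 repeats of the 9 genes' differences, 648 moved by less than the residual spread, 60 moved further and 0 called differences changed sign. The called ones were Myc, Mxd4, Mnt and Mlx with Torin1 and Mxd1 between the isomers. Some repeats cannot move a difference, only its call. These leave out an array of a group outside the comparison, fit both groups alone or add the replicate block. The 648 include them, so that count is no measure of stability. For 26 results of listed genes, 443 of 511 repeats kept direction and call, 64 lost the call, 3 gained it, and 1 changed sign, Tgfbr2 at -0.019 with median scaling. The causes of these shifts were not tested, except that filters and left-out rows change which genes enter the fit.

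Counts of called genes moved by more than 1.5 times as follows. With isorhamnetin against control, requiring signal on all 8 arrays gave 1 member, 2 MYC-repressed genes and 1 MLX partner target, and quantile normalization 1 MLX partner target. The MYC-repressed count there was 0 with normexp, median scaling, no filter, the fit of both groups alone, and without the first and last 48 rows. That last setting removes the Gadd45g probe, here and between the isomers. With tamarixetin against control, no filter gave 1 member, 1 MYC-repressed gene and 1 MLX partner target. Without the filter, 12581 of 45380 genes passed in that comparison, 14020 between the isomers and 7204 with Torin1. With Torin1, no filter gave 6 other network genes and 14 MYC-activated genes, and leaving out the first and last 48 rows gave 2 members of 5 measured and 3 MYC-repressed genes of 6. Between the isomers, the member count was 0 with normexp, with the fit of both groups alone, and without the first 48 rows or the first and last 48 rows, which remove the Mxd1 probe. The MYC-repressed count between them was 0 with normexp, median scaling, the fit of both groups alone and without the first and last 48 rows, 2 on all 8 arrays and 3 without a filter, which also gave 1 other network gene and 1 MLX partner target. The setting without first and last rows and the percentile over distinct probes were chosen after seeing the data.

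Leaving out 1 array at a time, with the other array of its group assumed to vary like the other groups, gave 0 to 1 members with tamarixetin and between the isomers, and 0 to 0 MYC-repressed genes with isorhamnetin and between the isomers. With Torin1 it gave 4 to 5 members, 8 to 12 other network genes, 18 to 28 MYC-activated genes, 4 to 6 MYC-repressed genes and 3 to 4 MLX partner targets. Over all genes, calls ranged over the alternatives with all arrays from 0 to 380 with isorhamnetin (121 as reported), 0 to 12581 with tamarixetin (16) and 0 to 14020 between the isomers (173), the highest for tamarixetin and between the isomers without a filter. Leaving out any 1 array lowered the number of isorhamnetin calls, also an array of a group outside that comparison. With the replicate number as a block, 4 genes were called with isorhamnetin.

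Replicate numbers did not pair the arrays: deviations of same-numbered arrays correlated between -0.131 and 0.0831. With the replicate number as a block, 0 members were called between the isomers and 0 MYC-repressed genes with isorhamnetin against control or between the isomers, while Torin1 gave 4 members, 10 other network genes and 25 MYC-activated genes.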
